A study of Homo sapiens with 32 samples.

Results

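Integrins are the adhesion receptors that hold a cell to its surrounding matrix, and the 10 genes described here encode subunits of them in HCT116, a human colorectal carcinoma line. The members were set by symbol: ITGA2, ITGA3, ITGA5, ITGA6 and ITGAV encode α chains, and ITGB1, ITGB4, ITGB5, ITGB6 and ITGB8 encode β chains. All 10 were found among the 60660 gene rows of the count table, and 9 had enough counts to be tested. ITGB6 did not.

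An integrin is a pair of 1 α and 1 β chain, made in the endoplasmic reticulum, N-glycosylated there and carried to the surface, so the mRNA of each chain sets only how much of it can be made. ITGB1 pairs with all 5 of these α chains: with ITGA2 it binds collagen, with ITGA3 or ITGA6 laminin, and with ITGA5 fibronectin. ITGA6 can pair instead with ITGB4, whose long cytoplasmic tail anchors hemidesmosomes. ITGAV is shared by ITGB1, ITGB5, ITGB6 and ITGB8; its pair with ITGB5 binds vitronectin, and its pairs with ITGB6 and ITGB8 bind latent TGF-β. Tunicamycin blocks N-glycosylation and brings on the unfolded protein response. IGF2BP2 and IGF2BP3 are RNA-binding proteins of 1 family.

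The 32 libraries held poly(A) RNA and came from HCT116 cells carrying a doxycycline-inducible (tetON) OsTIR1, a plant F-box protein used for induced protein degradation; the genotype label Tet-OsTIR1-PURO is on every sample, parental cells included. Parental cells gave 4 libraries in DMSO and 4 in tunicamycin, from 2 samples. The IGF2BP3 knockout gave 6 and 6, from clones A3, D12 and E4, and the IGF2BP2 knockout 6 and 6, from clones B7, F6 and G6, with 2 libraries per clone and treatment. Each clone was grown from a single GFP-sorted cell after transient transfection of a Cas9 plasmid, so a clone can differ from parental cells in more than its targeted gene. Libraries of 1 clone are not independent samples of a genotype, nor are the 4 parental libraries of a treatment, which come from 2 samples. P-values measure the spread between libraries. Parental and IGF2BP3 knockout cells received 5 µg/mL tunicamycin for 4 h or DMSO; dose and time are not stated for the IGF2BP2 knockout. The control libraries of clone G6 are called control in their title and tunicamycin in their treatment label.

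The guides are shown because clones that share one are compared below. Each is written 5′ to 3′ with the protospacer-adjacent motif (PAM), read from GENCODE release 29 transcripts, in capitals:
IGF2BP3 guide of clones A3 and E4: tggcaccgactgatagagctGGG
IGF2BP3 guide of clone D12: acgcgtagccagtcttcaccAGG
IGF2BP2 guide of clones B7 and F6: gagctgccggaggtcgtcggCGG
IGF2BP2 guide of clone G6: aggcgtagccggacttcagcAGG
On GRCh38 the first matches the + strand of chr7:23319200-23319219, in coding exon 11 of 15 of IGF2BP3, and the second the + strand of chr7:23469990-23470009, in its exon 1. The IGF2BP2 guides match the + strand at chr3:185824895-185824914 and chr3:185824837-185824856, both in coding exon 1.

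Total counts ran from 16651438 to 24913021 per library. Levels are given as CPM, counts scaled to library size after TMM normalization over all libraries. IGF2BP3 stood at 69.6 to 83.6 CPM in parental DMSO libraries and 18.8 to 41.5 in IGF2BP3 knockout ones, and IGF2BP2 at 158 to 197 against 80.8 to 93.7 in IGF2BP2 knockout ones, so each transcript was lower in every library of its knockout but still measurable. HSPA5, an endoplasmic reticulum chaperone induced by misfolded protein, was at 775.5 to 1119 CPM in all DMSO libraries and at 7867 to 10960 in tunicamycin; the clone G6 control libraries lay at 816 and 999.6, within the DMSO range. Of 9 colorectal epithelial markers 7 had a median above 1 CPM, and VIL1 and LGR5 were at a median of 0. Leukocyte markers summed to at most 0.537 CPM in any library, and of the fibroblast markers COL1A1 alone had a median above 1 CPM (9.29). Same-numbered libraries resembled each other across lines: ITGB4 and ITGB5 were lower in replicate 2 than in replicate 1 in 16 of 16 combinations of line and treatment, by a median of -0.20 and -0.28 on the log2 scale. Both numbers are present once in every line and treatment, so they are balanced over the groups compared. The main fits have no term for the number, so differences that go with it stay in their spread.

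The repertoire of unstressed parental cells was dominated by ITGB1, ITGB4, ITGA3 and ITGA6, the chains of the laminin receptors. Levels of different genes are compared per length, as CPM per kilobase of merged exons. ITGB1 (ENSG00000150093_20, chr10:32900319-33005792) was highest at 89.0 ± 9.78 CPM per kilobase (SD, n = 4, for this and the other levels of this paragraph). ITGB4 (ENSG00000132470_14, chr17:75721328-75757818) followed at 45.9 ± 3.70, ITGA3 (ENSG00000005884_18, chr17:50055968-50090481) at 35.2 ± 3.67 and ITGA6 (ENSG00000091409_15, chr2:172427354-172506282) at 33.8 ± 3.27. The ranges of ITGA3 and ITGA6 overlapped. Lengths of the longest transcript in place of merged exons put ITGA3 at 63.0 and above ITGB4 at 52.4, so the order of that pair depends on the length used.

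The collagen and fibronectin receptor chains and the partners of ITGAV came lower. ITGA2 (ENSG00000164171_11, chr5:52989326-53094779) stood at 13.8 ± 1.82 CPM per kilobase (SD, n = 4), and ITGB5 (ENSG00000082781_12, chr3:124761948-124901418) at 13.6 ± 1.33, with overlapping ranges. ITGAV (ENSG00000138448_12, chr2:186590065-186680901) was at 11.4 ± 0.470 and ITGA5 (ENSG00000161638_11, chr12:54395261-54419460) at 6.69 ± 0.157. ITGB8 (ENSG00000105855_10, chr7:20330702-20415754) was at 0.766 ± 0.105, from 218 to 325 counts per parental DMSO library. With the longest transcript ITGB5 (20.1) came above ITGA2 (13.8), and the other ranks were as with merged exons.

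ITGB6 (ENSG00000115221_12, chr2:160099666-160200313), the chain of the other TGF-β-binding ITGAV pair, was at or near the floor of these libraries. It had 0 to 4 counts per library (median 1, sum 39 over 32 libraries), and 10 libraries had none. A count of 0 allows up to 3 counts, which is 0.120 to 0.180 CPM at these depths, for counting error only, and the highest library stood at 0.214 CPM.

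Added over the chains, the α pool of parental DMSO libraries was 100.8 ± 9.18 CPM per kilobase (SD, n = 4). ITGA3 made up 34.9% ± 0.512 of it, ITGA6 33.5% ± 0.261, ITGA2 13.6% ± 0.562, ITGAV 11.3% ± 0.649 and ITGA5 6.67% ± 0.618 (SD, n = 4). The level of ITGB1 was 0.882 ± 0.0172 times this pool (SD, n = 4). ITGB1 was 59.6% ± 0.774 of the β pool and ITGB4 30.8% ± 0.796, ITGB5 9.12% ± 0.338 and ITGB8 0.513% ± 0.0447 (SD, n = 4). With the longest transcript as length the ratio of ITGB1 to the pool was 1.012 ± 0.0202 and ITGA3 made up 45.1% ± 0.643 of the α pool (SD, n = 4). ITGB1 mRNA was thus the most abundant chain by either length, and whether it lay below or above its 5 α partners together depends on the length used.

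**Figure D1:**
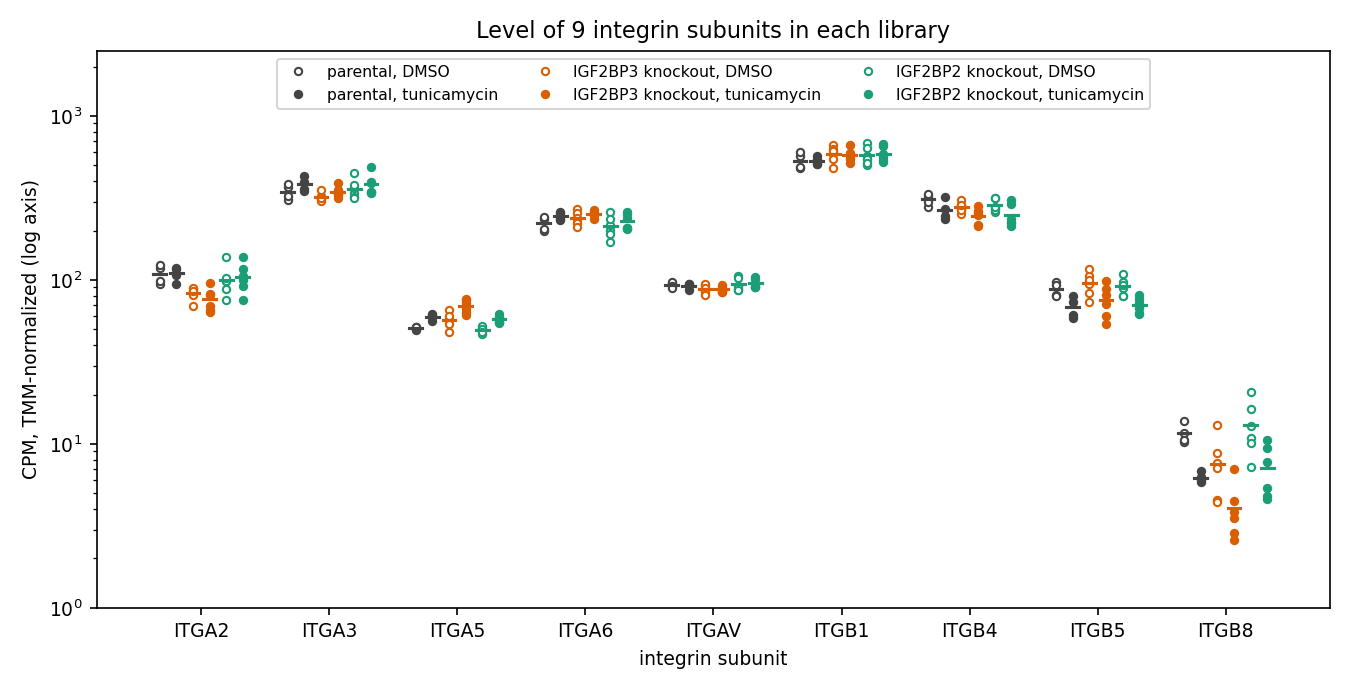
Level of each of 9 integrin subunits in all 32 libraries, as TMM-normalized CPM on a log axis; open points are DMSO, filled points tunicamycin, colours the genotype, and short lines the group means. In parental DMSO the means run from 11.6 CPM for ITGB8 to 535 CPM for ITGB1; values are not divided by gene length, and ITGB6 (at most 0.214 CPM) is not drawn.

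To ask which chains respond to blocked N-glycosylation, tunicamycin and DMSO libraries were compared within each genotype. In parental cells ITGB8 and ITGB5 mRNA fell and ITGA5 mRNA rose. These made 3 of the 9 tested members called at an adjusted p under 0.05 (quasi-likelihood test of edgeR, Benjamini-Hochberg adjusted over all genes), beside 26.8% of all 14398 genes tested. Of the 9, 1 was higher beside 12.5% of all genes, and 2 were lower beside 14.3%. The median log2 change of the 9 was -0.000256, and that of all genes -0.00741. In bulk RNA, fewer cells with a transcript and less of it per cell cannot be told apart, and protein was not measured. The count is near the share of all genes called, and nothing is read from it about the set.

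ITGB8 had the largest change of any member. The parental DMSO libraries held 13.8, 10.3, 11.7 and 10.6 CPM, and the tunicamycin libraries 6.79, 5.88, 6.25 and 6.01 CPM. All tunicamycin values lay below all DMSO values. The log2 fold change came to -0.89 (adjusted p 0.000173 by edgeR, SE 0.104), and it was called in all 14 alternatives. In the IGF2BP3 knockout ITGB8 ran from 4.40 to 12.97 CPM in DMSO (median 7.405, n = 6) and from 2.60 to 6.98 in tunicamycin (median 3.67, n = 6). The ranges overlap, and each of the 6 same-numbered pairs was lower in tunicamycin. The fold change came to -0.88 (adjusted p 0.000129 by edgeR, SE 0.134). In the IGF2BP2 knockout it ran from 7.21 to 20.7 CPM in DMSO (median 11.9, n = 6) and from 4.62 to 10.6 in tunicamycin (median 6.55, n = 6), with a fold change of -0.86 (adjusted p 7.9e-05 by edgeR, SE 0.127).

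ITGB5, the vitronectin-binding partner of ITGAV, was at 96.8, 81.2, 93.1 and 79.6 CPM in parental DMSO libraries and at 73.9, 58.9, 79.7 and 61.05 CPM in tunicamycin. The groups overlap at 1 pair of values, while every same-numbered pair was lower in tunicamycin. Its log2 fold change came to -0.35 (adjusted p 0.0199 by edgeR, SE 0.0946). The call ended without replicate 1 of parental sample 1 (-0.355, adjusted p 0.0571), at the same fold change, and without its replicate 2 (-0.317, adjusted p 0.0519). In the IGF2BP3 knockout ITGB5 changed by -0.33 (adjusted p 0.0179 by edgeR, SE 0.0984), a call lost without clone D12 (adjusted p 0.092) and without clone E4 (adjusted p 0.0642). In the IGF2BP2 knockout it fell by 0.35 (adjusted p 0.000226 by edgeR, SE 0.0588), and all 14 alternatives called it.

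ITGA5, the fibronectin-binding α chain, was at 49.3, 50.0, 51.7 and 51.6 CPM in parental DMSO libraries and at 56.1, 59.7, 61.6 and 60.8 CPM in tunicamycin, with no overlap. The log2 fold change came to 0.24 (adjusted p 0.00692 by edgeR, SE 0.0513). In the IGF2BP3 knockout its range moved from 47.8 to 65.1 CPM (median 57.4, n = 6) to 61.25 to 76.7 CPM (median 69.1, n = 6), a fold change of 0.30 (adjusted p 0.000778 by edgeR, SE 0.0557). In the IGF2BP2 knockout it moved from 46.8 to 52.4 CPM (median 50.25, n = 6) to 54.3 to 62.2 CPM (median 57.0, n = 6), a fold change of 0.23 (adjusted p 0.000739 by edgeR, SE 0.0436). ITGA5 was called in every alternative run in all 3 genotypes.

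Among the laminin receptor chains the changes were small. ITGB4 had a log2 change of -0.20 in parental cells (adjusted p 0.0836 by edgeR), and all 16 same-numbered pairs of the series were lower in tunicamycin. It was called in the IGF2BP3 knockout, at -0.17 (adjusted p 0.0265 by edgeR, SE 0.0534), but not without clone D12 (adjusted p 0.145) or without clone E4 (adjusted p 0.119), and at -0.17 it missed the threshold in the IGF2BP2 knockout (adjusted p 0.112 by edgeR). ITGA6 was called in the IGF2BP2 knockout, at 0.13 (adjusted p 0.0308 by edgeR, SE 0.0456); the call ended without clone B7, F6 or G6 (adjusted p 0.202, 0.0657 and 0.0774), and without the clone G6 control libraries (0.121). ITGA6 stood at 0.16 in parental cells (adjusted p 0.0888) and 0.10 in the IGF2BP3 knockout (adjusted p 0.109), both by edgeR. ITGA3 was at 0.15 in parental cells (adjusted p 0.173 by edgeR) and 0.11 in the IGF2BP3 knockout (adjusted p 0.0517 by edgeR), and 15 of 16 pairs were higher in tunicamycin. Alternatives also gained calls. In parental cells ITGB4 was called in 6 of 14, ITGA3 in 5 and ITGA6 in 4. They all passed there with counts summed per line (adjusted p 0.000817, 0.0113 and 0.012 by edgeR). In the IGF2BP3 knockout ITGA3 was called in 8 of 13, DESeq2 among them (adjusted p 0.021). In the IGF2BP2 knockout ITGB4 was called in 5 of 14.

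In all, 4 of the 9 members were called in the IGF2BP3 knockout, beside 33.8% of 14265 genes: 1 higher (16.2% of all genes) and 3 lower (17.6%). In the IGF2BP2 knockout 4 were called beside 40.1% of 14145 genes, with 2 higher (19.2%) and 2 lower (20.9%). Each genotype was compared with its own DMSO libraries, so the 3 comparisons share no library. They do share the replicate numbers, and same-numbered libraries resembled each other across lines.

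ITGB1, ITGAV and ITGA2 were not called in any genotype, and their log2 changes lay between -0.11 and 0.09. For ITGB1 the direction of the pairs went with the replicate number. A term for treatment by replicate number over all 32 libraries, chosen after seeing the data, did not call ITGB1 (0.135, adjusted p 0.30 by edgeR). In replicate 2 all 8 pairs were higher in tunicamycin (median 0.09), and in replicate 1 it was 1 of 8 (median -0.09). Fitted alone, replicate 2 libraries gave 0.117 in parental cells (adjusted p 0.0401 by edgeR) and 0.122 in the IGF2BP3 knockout (adjusted p 0.00154 by edgeR), whereas replicate 1 libraries of that knockout gave -0.135 (adjusted p 0.0295 by edgeR). In the IGF2BP2 knockout replicate 2 libraries gave 0.0753 for ITGB1 (adjusted p 0.011 by edgeR). ITGA2 in the IGF2BP3 knockout was called from replicate 1 libraries, at -0.24 (adjusted p 0.00441 by edgeR), and with counts summed per line, at -0.108 (adjusted p 0.0309 by edgeR). Within replicate numbers ITGA5 was higher in 8 of 8 and 8 of 8 pairs, and ITGB4, ITGB5 and ITGB8 were lower in 8 of 8 and 8 of 8. The ITGB4 pairs had a median of -0.125 in replicate 1 and -0.26 in replicate 2. The term for treatment by replicate number did not call ITGB4 (-0.178, adjusted p 0.236 by edgeR).

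**Figure D2:**
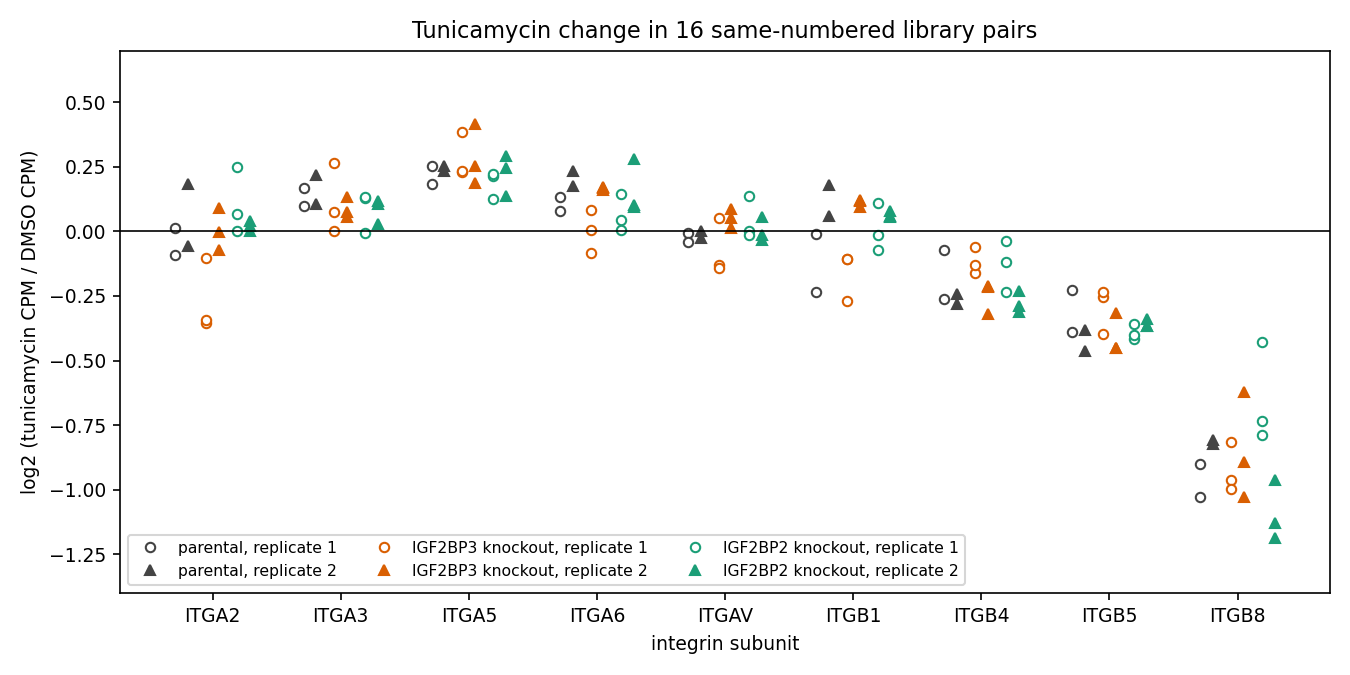
Log2 ratio of tunicamycin to DMSO CPM for 9 subunits in the 16 pairs of libraries of 1 line and replicate number; circles are replicate 1, triangles replicate 2, and colours the genotype. All 16 ITGB8 points lie between -1.19 and -0.43 and all 16 ITGA5 points between 0.13 and 0.42, while ITGB1 points of replicate 2 lie above 0 and 7 of 8 of replicate 1 below.

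To ask whether either knockout altered the response, the interaction of genotype and tunicamycin was fitted. No member was called for IGF2BP3 (0 of 15313 genes called by edgeR, 0%, with 255 at an unadjusted p under 0.05) or for IGF2BP2 (0 of 15178 genes, 0%, with 213 at an unadjusted p under 0.05). No member had an unadjusted p under 0.05 in either, and DESeq2 also called none. For ITGB8 the difference of the tunicamycin effect from that in parental cells was 0.02 for IGF2BP3 (95% interval -0.35 to 0.38) and 0.03 for IGF2BP2 (-0.32 to 0.39). For ITGA5 it was 0.07 (-0.09 to 0.22) and -0.01 (-0.13 to 0.11), and for ITGB5 0.03 (-0.28 to 0.34) and 0.00 (-0.23 to 0.23). The ITGB8 intervals are the widest of these and leave room for a difference of up to 0.39 in size.

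Line by line the ITGB8 effect ran from -0.71 in clone E4 (adjusted p 0.0678) to -0.9995 in clone D12 (adjusted p 0.00486, both by edgeR), and it was called in parental cells and in all clones but E4. The ITGA5 effect ran from 0.20 in clone F6 to 0.40 in clone A3. A test over the 7 lines, with the parental samples as 1 line, found no gene whose tunicamycin effect differed (0 of 15622 by edgeR, 0%, with 159 at an unadjusted p under 0.05 and no member among them).

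The stretches of DNA before the start of the 3 genes that moved in parental cells are shown because these members were called in the same comparison. They come from the RefSeq promoter table (GRCh38.p14), which matched 8 of the 10 members, and are cut to the bases upstream of the gene's start in GENCODE release 29. Capitals mark matches of the motifs named next:
ITGB8, + strand, chr7:20330650-20330701: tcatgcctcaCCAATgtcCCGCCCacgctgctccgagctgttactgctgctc
ITGB5, - strand, chr3:124901419-124901668: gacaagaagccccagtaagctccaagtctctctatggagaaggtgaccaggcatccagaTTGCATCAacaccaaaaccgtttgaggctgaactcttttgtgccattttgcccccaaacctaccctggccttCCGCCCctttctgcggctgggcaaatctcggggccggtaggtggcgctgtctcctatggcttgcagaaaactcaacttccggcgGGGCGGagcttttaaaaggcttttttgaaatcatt
ITGA5, - strand, chr12:54419461-54419516: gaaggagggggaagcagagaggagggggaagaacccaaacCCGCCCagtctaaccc
Motifs were searched on both strands in the 250 bases before each start: the CCAAT box (CCAAT), the GC box (GGGCGG), the ER stress response element of ATF6 (CCAAT and, 9 bases on, CCACG, so that it contains a CCAAT box), the UPR element (TGACGTGG), the cyclic AMP response element (TGACGTCA), the C/EBP-ATF element (TTGCATCA) and the AP-1 site (TGANTCA). ITGB5 held the C/EBP-ATF letters 191 bases before the most upstream of its 3 listed starts, the only one searched. Of 35116 listed promoters, 0.772% hold these letters. ITGB8 held a CCAAT box, as did 32% of promoters, and all 3 held a GC box, as did 42.6%. The letters of the ER stress response element, the UPR element, the cyclic AMP response element and the AP-1 site were not in the window of any of the 3; 0.074%, 0.612%, 1.65% and 6.57% of promoters hold them. For ITGB8 and ITGA5 only 52 and 56 of the 250 bases searched lie upstream of the gene's start in GENCODE release 29. The rest lie within the gene as annotated there. Whether any of the matches is used was not tested.

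To ask what loss of IGF2BP3 did to the subunits, knockout and parental libraries were compared. ITGA2, the collagen-binding α chain, was lower in the IGF2BP3 knockout in DMSO, and no other member was called: 1 of 9, beside 1.61% of 14568 genes. Parental DMSO libraries held 118, 94.9, 124 and 98.3 CPM of ITGA2, and the 6 knockout libraries 69.3 to 89.7 CPM (median 84.3). The groups did not overlap. The log2 fold change came to -0.39 (adjusted p 0.0180 by edgeR, SE 0.0758). This call ended when all replicate 1 libraries were left out (-0.26, adjusted p 0.632), or only that of parental sample 1 (adjusted p 0.0815) or 2 (adjusted p 0.0788), with all 32 libraries in 1 fit (adjusted p 0.269) and with counts summed per line (adjusted p 0.0512). In tunicamycin ITGA2 was at 119, 108, 116.5 and 94.7 CPM in parental libraries and at 63.5 to 95.5 CPM (median 75.2, n = 6) in the knockout, which overlap at 1 library. That change was -0.52 (adjusted p 0.0634 by edgeR, SE 0.113).

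In tunicamycin no member was called for IGF2BP3 by edgeR (0 of 9, beside 0.718% of 14626 genes); 4 had an unadjusted p under 0.05, and DESeq2 called ITGA2 alone (adjusted p 0.00277). ITGB8 stood at -0.61 in DMSO (adjusted p 0.250 by edgeR, SE 0.238) and -0.61 in tunicamycin (adjusted p 0.352 by edgeR, SE 0.229). Without clone A3 it was called in both, at -0.97 (adjusted p 0.0175) and -0.95 (adjusted p 0.0141). ITGA2 in tunicamycin was also called without clone A3 (-0.55, adjusted p 0.0248).

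The IGF2BP2 knockout showed no called member against parental cells, in DMSO (0 of 9, beside 0.0137% of 14564 genes) or in tunicamycin (0 of 9, beside 0.00694% of 14419 genes), by edgeR. None had an unadjusted p under 0.05 by edgeR in either, and DESeq2 called none. In DMSO the log2 fold changes of the 9 members ran from -0.12 for ITGA2 to 0.16 for ITGB8, whose 95% interval was -0.29 to 0.62. Comparing the IGF2BP3 with the IGF2BP2 knockout in DMSO gave no called member by edgeR (0 of 9, beside 0.589% of 14250 genes) and none by DESeq2, with 4 at an unadjusted p under 0.05. ITGA6 was called there without clone F6 (0.29, adjusted p 0.0470 by edgeR). These comparisons share the parental or the knockout libraries.

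Clones of 1 genotype differed from each other in several members. ITGB8 varied most of the 9: its mean over both treatments was 3.61 CPM in clone E4, 5.54 in D12, 6.82 in G6, 8.31 in A3, 8.92 in parental cells, 9.08 in F6 and 14.3 in B7. The range of the line means was 1.93 on the log2 scale for ITGB8, 0.73 for ITGA2, and 0.22 to 0.45 for the other 7, beside a median of 0.36 over 15543 genes. Among the IGF2BP3 clones 1 of 9 members differed, ITGB8 (adjusted p 0.00108 by edgeR), beside 7.63% of 14265 genes. ITGB5 missed the threshold there (adjusted p 0.0909 by edgeR) but was called in 4 of 6 alternatives. Among the IGF2BP2 clones 7 of 9 differed, all but ITGA5 and ITGB4, beside 26.4% of 14145 genes (adjusted p 0.000335 for ITGB1 to 0.0395 for ITGB5 by edgeR). Of these, ITGAV and ITGB5 were each called in 5 of 7 alternatives and the others in all 7. The clones with a shared guide did not share an ITGB8 level: A3 was at 8.77 and 12.97 CPM in DMSO and E4 at 4.575 and 4.40, and B7 at 16.3 and 20.7 and F6 at 12.9 and 10.9.

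Clone E4 departed furthest from parental cells by number of members, 4 of 9, beside 11.5% of 15622 genes. In a fit over both treatments ITGB8 was lower, at -1.28 (adjusted p 1.81e-06 by edgeR, SE 0.151), as was ITGA2, at -0.63 (adjusted p 0.000226, SE 0.106), and ITGA5 was higher by 0.32 (adjusted p 0.000182, SE 0.053) and ITGB5 by 0.35 (adjusted p 0.0326, SE 0.106). The first 3 held in all 12 alternatives. ITGB5 was lost without E4 replicate 1 (adjusted p 0.426) and without replicate 2 of parental sample 1 (0.0965) or 2 (0.1).

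In clone D12, 2 of 9 members were called beside 5.75% of all genes: ITGB8 at -0.70 (adjusted p 0.00342, SE 0.146) and ITGA2 at -0.37 (adjusted p 0.0387, SE 0.105), both by edgeR. Neither was called with 1 D12 replicate left out: ITGB8 had an adjusted p of 0.0501 without replicate 1 and 0.0774 without replicate 2, and ITGA2 0.207 and 0.187. ITGA2 was also lost without replicate 1 of parental sample 1 (0.112) or 2 (0.114). Clone A3 had 2 of 9 beside 5.59%: ITGA2 at -0.38 (adjusted p 0.0287, SE 0.105) and ITGB1 at 0.23 (adjusted p 0.0319, SE 0.0627), both by edgeR. ITGA2 was lost without all replicate 1 libraries, where it came to -0.097 (adjusted p 0.283), without A3 replicate 1, where it came to -0.226 (adjusted p 0.314), and without replicate 1 of parental sample 1 (0.0837) or 2 (0.0811). ITGB1 was lost without all replicate 2 libraries, at 0.114 (adjusted p 0.322), without A3 replicate 2, at 0.166 (adjusted p 0.16), and without replicate 2 of parental sample 1 (0.0771) or 2 (0.107).

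The IGF2BP2 clones moved in different members. In clone B7, 3 of 9 were called beside 13.2% of all genes: ITGB8 rose by 0.67 (adjusted p 0.000621, SE 0.130), ITGA2 was at -0.41 (adjusted p 0.00982, SE 0.105) and ITGA6 at -0.25 (adjusted p 0.00437, SE 0.0594), all by edgeR. All 3 missed the threshold without B7 replicate 2 (adjusted p 0.064, 0.234 and 0.0635). In clone F6, 3 of 9 were called beside 12.9%: ITGB1 at 0.32 (adjusted p 0.000960, SE 0.0625), ITGA3 at 0.24 (adjusted p 0.0214, SE 0.0691) and ITGAV at 0.17 (adjusted p 0.00478, SE 0.0392), all by edgeR. ITGB1 held in all 12 alternatives. Without F6 replicate 1 both other calls were lost: ITGA3 came to 0.0837 (adjusted p 0.509) and ITGAV to 0.138 (adjusted p 0.0754). ITGAV was lost also without any filter on low counts (0.21) and without all replicate 2 libraries (0.155), and ITGA3 without replicate 2 of parental sample 1 (0.0727) or 2 (0.08). Clone G6 had no called member by edgeR (0 of 9, beside 1.8% of all genes), with 2 at an unadjusted p under 0.05; DESeq2 was not run for single clones. ITGB8 in G6 was at -0.37 (adjusted p 0.254 by edgeR, SE 0.14).

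ITGA2 was therefore called lower in 4 of 6 clones, A3, D12, E4 and B7, of which 3 are IGF2BP3 knockouts. ITGB8 was called lower in D12 and E4 and higher in B7. The 6 clones are compared with the same parental libraries.

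**Figure D3:**
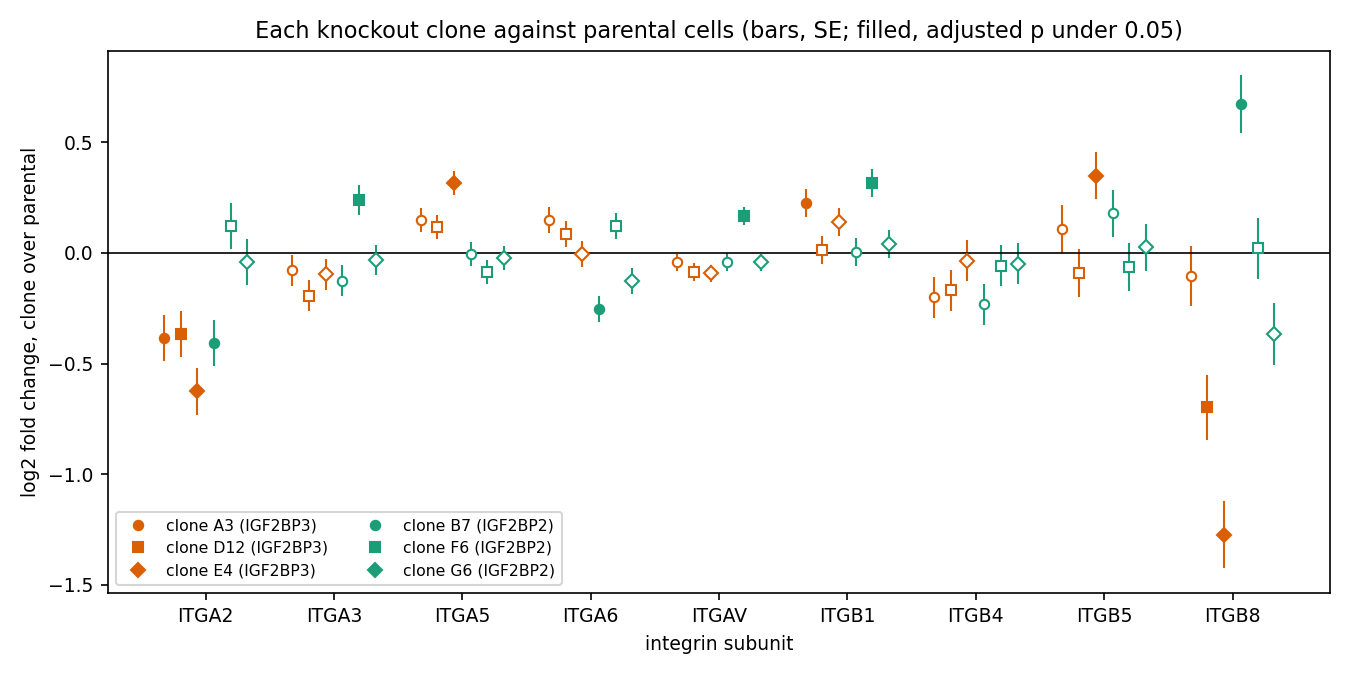
Log2 fold change of each clone over parental cells for 9 subunits, from the fit over both treatments; bars are SE and filled symbols have an adjusted p under 0.05 by edgeR. ITGB8 spreads from -1.28 in clone E4 to 0.67 in clone B7, and ITGA2 is filled below 0 in clones A3, D12, E4 and B7.

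**Figure D4:**
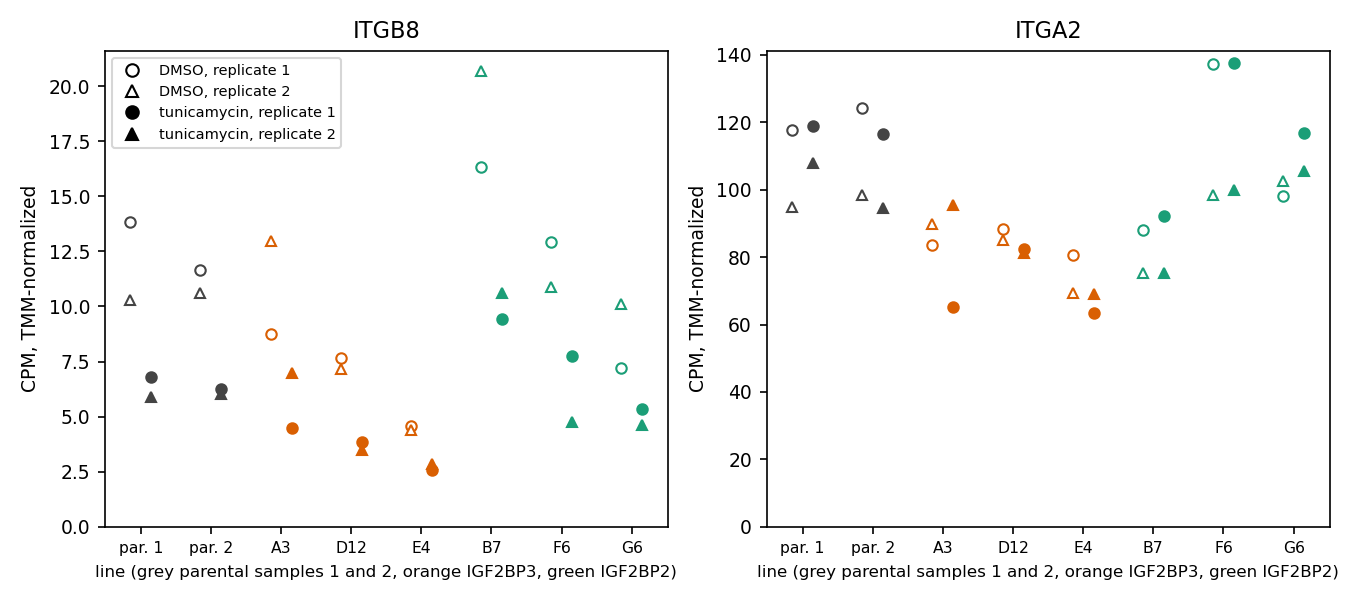
CPM of ITGB8 (left) and ITGA2 (right) in every library by line; open symbols are DMSO, filled tunicamycin, circles replicate 1, triangles replicate 2. ITGB8 is lower in tunicamycin within each line although DMSO means run from 4.49 CPM in E4 to 18.5 in B7, and ITGA2 shows no such shift.

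ITGB8 had both the widest range over lines and the largest tunicamycin effect in parental cells, so the genes most like it were listed. Over the 14 means of line and treatment GNAI1 (an inhibitory G protein α subunit) had a Pearson r of 0.963 with ITGB8, VAMP3 (a vesicle fusion protein of recycling endosomes) 0.934 and KITLG (the ligand of the KIT receptor) 0.929. They were the highest of 10113 genes compared, and the points share treatment and parental origin.

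Of the 16 other integrin subunits, most were barely expressed. ITGAE was highest, at a median of 21.6 CPM over all libraries, followed by ITGA7 at 6.95, ITGA2B at 1.204 and ITGA1 at 1.08, and the other 12 had medians of at most 0.463 CPM. ITGAE fell in tunicamycin in parental cells, at -0.26 (adjusted p 0.0332, SE 0.0783), in the IGF2BP3 knockout, at -0.23 (adjusted p 0.00428), and in the IGF2BP2 knockout, at -0.25 (adjusted p 0.00449), all by edgeR. It was the 1 of 5 tested that passed in parental cells, beside 26.8% of all genes. ITGA7 passed in the IGF2BP3 knockout, at -0.28 (adjusted p 0.0404 by edgeR, SE 0.0986).

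The matrix ligands of these receptors moved in both directions in tunicamycin. In parental cells 3 of 23 tested rose, beside 12.5% of all genes, and 2 fell, beside 14.3% (median log2 change -0.04, beside -0.01 for all genes). CCN2 rose by 1.33 (adjusted p 0.000103, SE 0.144) and CCN1 by 1.14 (adjusted p 9.63e-05, SE 0.122), matricellular proteins that bind integrins. LAMB3, a chain of the laminin bound by the ITGA3 and ITGA6 receptors, rose by 0.87 (adjusted p 0.000355, SE 0.114), and LAMC1, a laminin γ chain, fell by 0.23 (adjusted p 0.00650), all by edgeR. The IGF2BP3 knockout had 5 of 22 higher (16.2% of all genes) and 4 lower (17.6%), and the IGF2BP2 knockout 4 of 23 higher (19.2%) and 3 lower (20.9%). Nothing is read from the tunicamycin counts of this list or the lists below about the lists as such.

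Some ligands also differed between genotypes. In the IGF2BP3 knockout in DMSO, 2 of 23 were higher and 5 lower than in parental cells, beside 1.61% of all genes called in either direction (median -0.13, beside 0.00 for all genes). LAMA3, a laminin α chain of the same heterotrimer as LAMB3, was higher by 1.06 (adjusted p 0.00556, SE 0.168). LAMB1, a laminin β chain, changed by -0.84 (adjusted p 7e-05, SE 0.0774), CCN2 by -0.88 (adjusted p 0.00329, SE 0.125) and THBS1, thrombospondin, by -0.79 (adjusted p 0.0282, SE 0.166), all by edgeR. In tunicamycin 1 of 23 was higher (LAMA3, 0.71) and 2 were lower (CCN2, -1.19, and LAMB1, -0.71), beside 0.718% of all genes called. Against the IGF2BP2 knockout in DMSO, THBS1 was at -1.005 (adjusted p 0.00991) and CCN1 at -0.64 (adjusted p 0.00982) by edgeR.

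The clone fits show that some of these ligand changes were not limited to 1 genotype. LAMB1 was lower in clones A3 (-0.95), D12 (-0.69), E4 (-0.70), B7 (-0.57) and F6 (-0.64) and higher in G6 (0.25), each called by edgeR. LAMA3 was higher in A3 (1.08), D12 (0.62), E4 (0.92) and F6 (1.545), each called by edgeR. CCN2 was lower in A3 (-1.03), D12 (-1.26), E4 (-0.84) and F6 (-1.16) and higher in B7 (0.41), each called by edgeR. THBS1, in contrast, was called lower by edgeR only in the IGF2BP3 clones, A3 (-1.33), D12 (-0.74) and E4 (-0.55). It was called higher in F6 (0.595).

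The list of talins, kindlins, adhesion adaptors and kinases had 28 tested genes. In parental cells in tunicamycin 3 rose and 5 fell, beside 12.5% and 14.3% of all genes (median -0.00139, beside -0.00741 for all genes). TES, a focal adhesion LIM protein, rose by 1.59 (adjusted p 3.71e-07, SE 0.0738), and FYN, a Src family kinase, by 1.00 (adjusted p 0.000173, SE 0.117). TNS4, a short tensin that binds β chain tails, fell by 1.29 (adjusted p 1.77e-06, SE 0.0757), and BCAR1, a docking protein of focal adhesions, by 0.63 (adjusted p 0.00325, SE 0.119), all by edgeR. The counts were 5 higher and 5 lower of 27 in the IGF2BP3 knockout (16.2% and 17.6% of all genes) and 4 and 8 of 27 in the IGF2BP2 knockout (19.2% and 20.9%). Between genotypes in DMSO, VCL, the actin linker vinculin, was at -0.34 in the IGF2BP3 knockout against parental cells (adjusted p 0.0252) and at -0.36 against the IGF2BP2 knockout (adjusted p 0.0268), and TNS2, another tensin, was at -0.38 against parental cells in tunicamycin (adjusted p 0.0362), all by edgeR.

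Of 18 inhibitors and trafficking factors of integrins, 4 rose and 2 fell in parental cells in tunicamycin, beside 12.5% and 14.3% of all genes (median -0.000552, beside -0.00741 for all genes). RAB5A, a small GTPase of early endosomes, rose by 0.66 (adjusted p 1.72e-05, SE 0.0543), and NUMB, an endocytic adaptor, by 0.27 (adjusted p 0.00373, SE 0.0531). DOK1, an adaptor that competes with talin for β tails, fell by 0.70 (adjusted p 0.000255, SE 0.0868), all by edgeR. The IGF2BP3 knockout had 4 higher and 4 lower (16.2% and 17.6% of all genes) and the IGF2BP2 knockout 5 higher and 2 lower (19.2% and 20.9%).

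Of 14 tested hemidesmosome and tetraspanin partners, 1 passed in parental cells, beside 26.8% of all genes. SLC3A2, the CD98 heavy chain, which associates with ITGB1 and escorts amino acid transporters, rose by 1.25 (adjusted p 3.13e-06 by edgeR, SE 0.0804). It rose by 1.08 in the IGF2BP3 knockout (adjusted p 2.95e-07) and 1.14 in the IGF2BP2 knockout (adjusted p 9.45e-10), both by edgeR. CD9 and CD81, tetraspanins, fell in both knockouts: CD81 by 0.16 in the IGF2BP3 knockout (adjusted p 0.0462) and by 0.21 in the IGF2BP2 knockout (adjusted p 0.00506), and CD9 by 0.16 (adjusted p 0.0411) and 0.20 (adjusted p 0.0377), all by edgeR.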

How the data were processed

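The 32 libraries were made with a poly(A) selection and a directional kit and sequenced as paired 100-base reads, per the labels' protocols. STAR 2.7.5c and hg38 are named in the submitters' processing notes; the counting tool, annotation and use of strand are not given in the sources used here. The deposited table holds the authors' raw counts per Ensembl gene, 60660 rows, 60419 of them matched to a symbol through a table of gene names. Version numbers of the identifiers differ from GENCODE release 29; gene coordinates and lengths are those of GENCODE release 29 on GRCh38.

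From the counts, edgeR 4.0.16 (R 4.3.3) fitted quasi-likelihood models with TMM normalization and its default expression filter over all genes, with the line as a covariate for tunicamycin effects. P-values were Benjamini-Hochberg adjusted over all genes tested, and calls were made at 0.05. DESeq2 1.42.0, other filters, other scaling, left-out libraries, clones and replicate numbers, and counts summed per line were alternatives. CPM are TMM-scaled. Intervals of 95% take 1.96 SE on each side, a normal quantile, and are narrower than the quasi-likelihood test implies. On simulated counts with 200 changed genes, 155 with a log2 change of 0.5 were recovered for tunicamycin in parental cells (14153 genes), and 197 with a change of 1 (14125 genes). Of the calls in these runs, 8.28% and 5.74% were false. For the interaction with the IGF2BP3 knockout, 125 of 200 with a change of 0.5 were recovered, with 8.09% of calls false. Changes below 0.5, the size of most member changes, were not simulated.

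Groups come from sample titles; the clone G6 control libraries were placed by title. Members and gene lists were chosen with earlier results of these data known. All 10 members are named; from each other list up to 4 called genes per comparison were named by size (1 such gene is not reported here), while ITGA7, CD9, CD81 and the clone values of LAMA3, LAMB1 and CCN2 were chosen after they were seen. Library depths of 16651438 to 24913021 counts limit ITGB6 and ITGB8 most. Libraries of 1 group differed by more than counting noise, so each was kept as its own library. Between replicates of 1 line and treatment, over all lines, the chi-square per degree of freedom was 4.59 to 25.2. Between same-numbered libraries of the parental samples it was 1.70 to 7.81, so the ranges overlap. Same-numbered parental libraries could lie close together, and an n of 4 counts them as independent. ITGA2 in parental DMSO, for example, was at 117.8 and 124.2 CPM in replicate 1 and at 94.92 and 98.32 in replicate 2.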

Additional observations from a re-analysis of the deposited data

How the results depend on the processing

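Of the values of single members under the alternatives, 2143 stayed on the same side of the threshold, 50 lost a call, 91 gained one and 2 were called with the other sign. Of 2115 values with a direction, 127 had the other sign from the value reported, 125 of them on the uncalled side. Called with the other sign were ITGB1, tunicamycin effect in parental cells (0.117 without replicate 1, -0.0988 without replicate 2) and ITGB1, tunicamycin effect in IGF2BP3 knockout (0.122 without replicate 1, -0.135 without replicate 2); the cause was not tested. A term for treatment by replicate number over all 32 libraries, chosen after seeing the data, called 17 of 15543 genes and no member (ITGB1 0.135, adjusted p 0.30 by edgeR). Depth limits ITGB8, with 60 to 450 counts per library.

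Of 120 pairs of line and treatment, 119 had same-numbered deviations correlated above 0.1 (lowest 0.0856, median 0.378), so 1 pair missed the criterion and the number was not taken as a pairing. With the replicate block the members called went from 3 to 6 for tunicamycin effect in parental cells (ITGB4 at -0.208, adjusted p 0.000887, ITGA6 at 0.16, adjusted p 0.00137, and ITGA3 at 0.153, adjusted p 0.00185, by edgeR), from 4 to 6 in IGF2BP3 knockout (ITGA3 and ITGA6) and from 4 to 6 in IGF2BP2 knockout (ITGA3 and ITGB4), from 0 to 1 for IGF2BP3 knockout against parental in tunicamycin, from 1 to 4 for differences among IGF2BP3 knockout clones, from 2 to 5 for clone A3 against parental, from 2 to 4 for clone D12 against parental, from 4 to 5 for clone E4 against parental, from 3 to 6 for clone B7 against parental, from 3 to 4 for clone F6 against parental and from 0 to 1 for clone G6 against parental; for the other comparisons the count stayed as reported. DESeq2 with replicate block, chosen after seeing the data, called 6 for tunicamycin effect in parental cells, 2 for IGF2BP3 knockout against parental in DMSO and 2 for IGF2BP3 knockout against parental in tunicamycin.

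With counts summed per line, members called were 6 for tunicamycin effect in parental cells, 7 for tunicamycin effect in IGF2BP3 knockout and 0 for IGF2BP3 knockout against parental in DMSO. With no filter they were 2 for that comparison in DMSO, 1 for IGF2BP3 knockout against parental in tunicamycin and 3 for differences among IGF2BP3 knockout clones. All 32 libraries in one fit gave 0 for IGF2BP3 knockout against parental in DMSO, and DESeq2 gave 1 for it in tunicamycin. Without clone A3 the count was 2 in DMSO and 2 in tunicamycin. Tunicamycin effect in IGF2BP3 knockout had 2 without clone D12 and 2 without clone E4, and IGF2BP3 knockout against IGF2BP2 knockout in DMSO had 1 without clone F6.

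Next, 1 replicate number, or 1 replicate of 1 parental sample or clone, was left out at a time. The second kind took out DMSO and tunicamycin libraries together in the tunicamycin and clone fits. For the tunicamycin effect in the knockouts and the differences among clones only replicate numbers were left out. The members called ranged from 2 to 7 for tunicamycin effect in parental cells, 6 to 7 in IGF2BP3 knockout and 3 to 7 in IGF2BP2 knockout. They ranged from 0 to 1 for IGF2BP3 knockout against parental in DMSO, and from 2 to 7 for differences among IGF2BP3 knockout clones. Against parental cells they ranged from 1 to 3 for clone A3, 0 to 3 for clone D12, 3 to 5 for clone E4, 0 to 5 for clone B7 and 1 to 5 for clone F6.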
